A study of Mus musculus with 21 samples.

Results

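The BCL2 family was followed through 8 genes, chosen by name: the survival genes Bcl2, Bcl2l1 and Mcl1, and the death genes Bcl2l11, Bax, Bak1, Bad and Bid. All 8 were among the 17516 gene symbols of every count table. RNA was counted in single cells of 21 libraries of mouse OT1 cells, CD8 T cells that carry a transgenic receptor for an ovalbumin peptide. No condition had more than 1 library, no test between conditions was made, and the intervals given here cover counting error only. The shared background of all libraries was the OT1 receptor transgene, and no further allele was named.

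Naive cells were taken on day 0 without treatment. All other cells had been activated on day 0 with bead-bound antibodies against CD3 and CD28. They were then kept without added cytokine to day 3 or day 5, or with IL-2, IL-2v or IL-15 at 5 or 50 IU/mL to days 3, 5 and 10. IL-2v is a variant of IL-2 that its treatment label calls a mutant. In 6 libraries the treatment label and the title code disagreed: the 3 coded as 50 IU/mL IL-2 named interleukin-3 and the 3 coded as 50 IU/mL IL-15 named interleukin-16. The title codes were followed. The extraction text speaks of T cells sorted from tumours, the growth text of cultured cells, and the libraries were taken as cultured cells. The number of mice and whether cells were pooled are not given in the sources used here.

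BCL2 family proteins set whether a cell opens the outer membrane of its mitochondria and dies. BCL2, BCL-XL (from Bcl2l1) and MCL1 hold the pore-forming proteins BAX and BAK in check. The BH3-only proteins BIM (from Bcl2l11), BAD and BID bind the survival proteins, and BIM and BID can also activate BAX and BAK directly. In T cells, IL-2, IL-15 and IL-7 are known to sustain BCL2, and BIM is known for its part in the death of activated T cells when cytokine runs out.

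On mouse build GRCm38 (the sequence of mm10), GENCODE places Bcl2 at chr1:106538178-106714274 on the minus strand and Bcl2l11 at chr2:128126038-128162547 on the plus strand. Bcl2l1 lies at chr2:152780668-152831728 (minus), Mcl1 at chr3:95658788-95663176 (plus) and Bax at chr7:45461697-45466898 (minus). Bak1 lies at chr17:27019810-27029009 (minus), Bad at chr19:6941861-6951899 (plus) and Bid at chr6:120891930-120916853 (minus). Genes on the other strand cover 6.09% of the exonic bases of Bcl2 (D630008O14Rik), 25.5% of Bak1 (Ggnbp1), 20.5% of Bad (Gpr137) and 17.7% of Bid (Bcl2l13). Gm45808, on the same strand, covers 12.2% of the exonic bases of Bax. Whether counting used the strand is not given in the sources used here, so reads in those stretches cannot be assigned with certainty.

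The 250 bases before a RefSeq start are shown for Bcl2 and Bcl2l11, the survival gene and the death gene whose levels varied most among the 21 libraries. They are from RefSeq promoters of GRCm38.p6, at chr1:106714291-106714540 (minus strand) for Bcl2 and chr2:128125788-128126037 (plus strand) for Bcl2l11, and capitals mark a match to a searched motif. RefSeq gives Bcl2l11 another start, whose 250 upstream bases (chr2:128127325-128127574) held no match. The stretch with the match is shown.
Bcl2: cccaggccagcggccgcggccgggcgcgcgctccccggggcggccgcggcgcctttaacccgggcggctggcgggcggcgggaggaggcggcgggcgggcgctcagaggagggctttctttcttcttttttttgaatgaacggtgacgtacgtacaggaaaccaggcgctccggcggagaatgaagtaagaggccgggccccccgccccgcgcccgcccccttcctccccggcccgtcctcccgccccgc
Bcl2l11: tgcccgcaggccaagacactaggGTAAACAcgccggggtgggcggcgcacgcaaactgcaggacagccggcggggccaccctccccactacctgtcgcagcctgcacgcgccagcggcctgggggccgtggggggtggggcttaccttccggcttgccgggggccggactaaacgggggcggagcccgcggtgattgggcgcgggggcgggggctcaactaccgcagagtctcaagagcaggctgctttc
Both stretches are rich in G and C (74.8% and 72.0%), with 36 and 24 CpG pairs. All 8 members matched the RefSeq table, with 12 promoters in all. Their 250 upstream bases were searched on both strands for TTCNNNGAA (the STAT pattern), GTAAACA (the forkhead pattern), TGACGTCA (the cyclic AMP response pattern) and CACGTG (an E-box). Among 32851 mouse promoters of the same length, these patterns occurred in 7.02%, 3.17%, 1.55% and 6.02%. The matches were GTAAACA in the Bcl2l11 stretch above, its 5′ base at -227 from the start, and CACGTG at -9 in Bax, with no overlap between motifs. No other member promoter held any of the 4 patterns in this window. A match describes letters and says nothing of binding.

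After filtering, 3250 to 7105 cells and 10589950 to 32648496 UMIs (unique molecular identifiers, each a captured RNA molecule) remained per library, with a median of 3016 to 5065 UMIs per cell. The library with the fewest cells, UMIs and UMIs per cell was that of 50 IU/mL IL-2 on day 5. Levels are given as CPM, the UMIs of a gene scaled to a common total per library. The 8 T cell markers summed to 4032 to 9958 CPM in every library, while CD4 T cell, B cell and erythroid markers summed to at most 17.8 CPM. Ms4a1, Pax5, Foxp3, Lyz2, Csf1r, Cd14, Adgre1, Ncr1 and Klra8 never reached 1 CPM. Myeloid markers summed to 64.9 to 222 CPM, with Cst3 the highest, and NK cell markers to 7.96 to 193 CPM, with Eomes the highest. Libraries shared 1 to 19 cell barcodes by pair, at most 0.340% of the smaller library. Cells with a UMI of Mki67 or Top2a, called cycling here, made up 3.01% of naive cells and 86.9% of cells in 50 IU/mL IL-2v on day 3. The heat shock gene Hspa1a stood at 65.8 and 128 CPM in 50 IU/mL IL-2 on days 3 and 5 and at most at 1.28 CPM elsewhere.

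Bcl2 and Bcl2l1 varied most across the 21 libraries. The standard deviation of log2(CPM + 1) was 1.20 for Bcl2, above that of 95.9% of the 5495 genes whose mean reached 20 CPM, and 1.0 for Bcl2l1, above 94.0%. It was 0.63 for Bcl2l11, 0.48 for Mcl1, 0.47 for Bax, 0.46 for Bak1, 0.44 for Bid and 0.28 for Bad, where the median gene had 0.35. These are spreads over different conditions and not errors. Bcl2l1 reached 20 CPM in 15 libraries, Bad in 18 and Bid in 2, and the other 5 members in all 21.

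**Figure D1:**
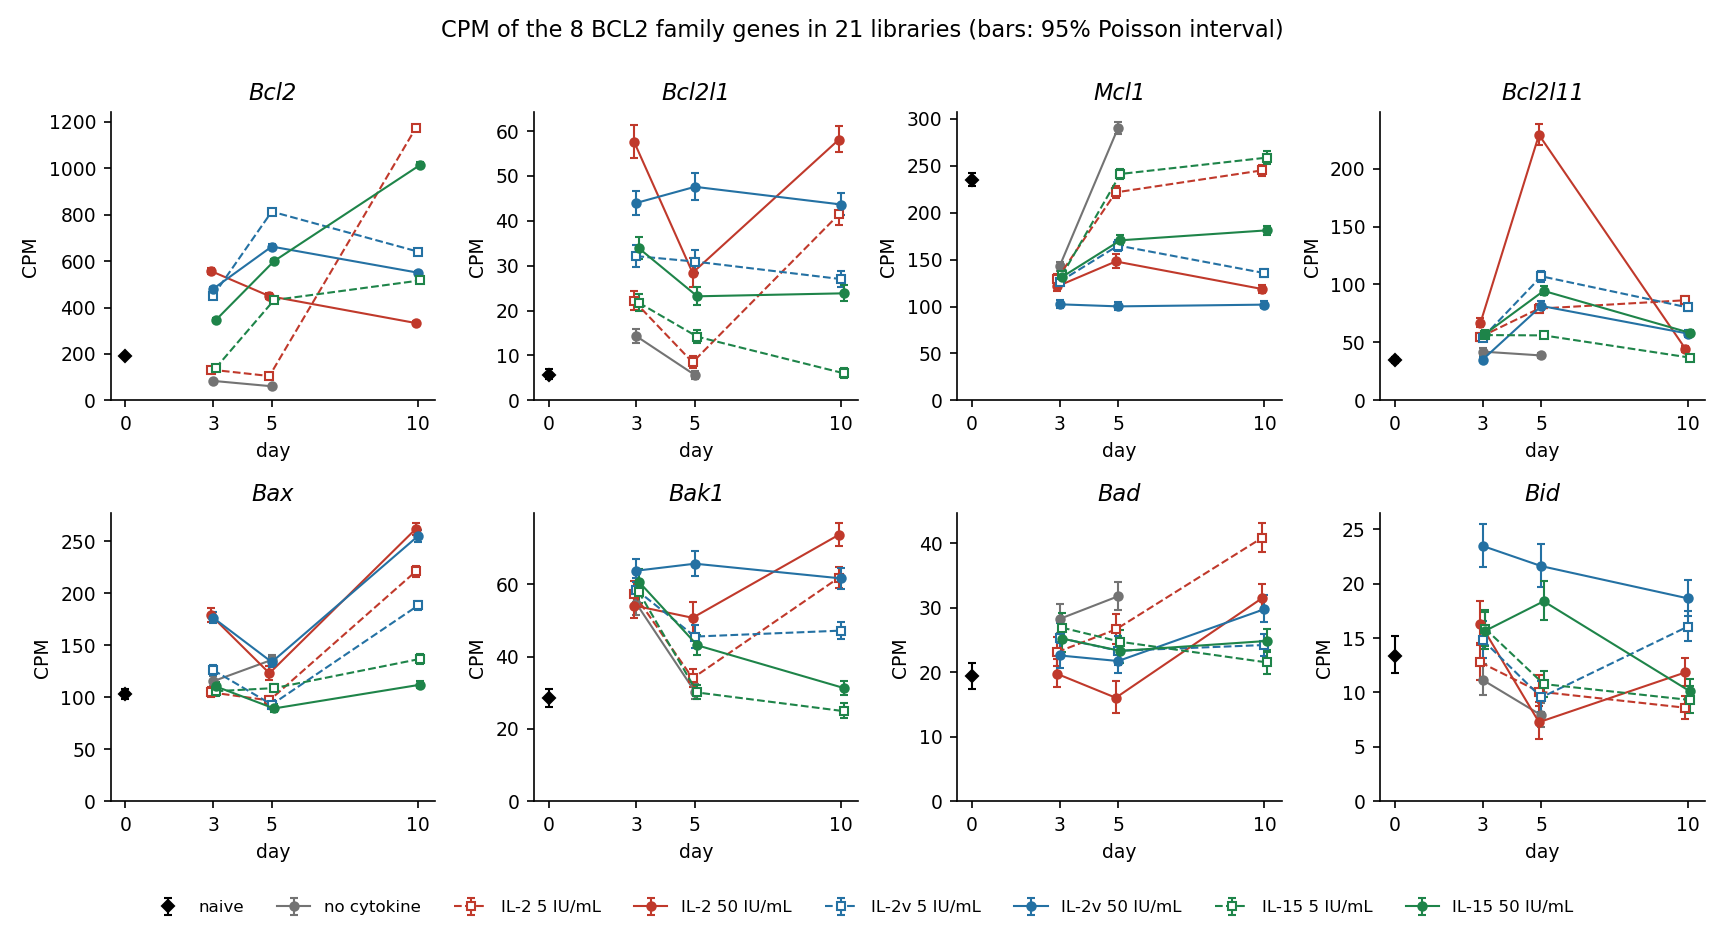
Level of each of the 8 genes in CPM (y, linear from 0) against day of culture (x) in 21 libraries, 1 point per library, with 95% Poisson intervals of counting. Lines join libraries of 1 cytokine and dose. Bcl2 ends at 1173 CPM in 5 IU/mL IL-2 and 333 CPM in 50 IU/mL IL-2, and Bcl2l11 peaks at 229 CPM in 50 IU/mL IL-2 on day 5.

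Bead activation without cytokine came with less Bcl2 and more Bcl2l1. Bcl2 stood at 191 CPM (95% interval 185 to 198) in naive cells and 84.0 CPM (80.2 to 87.9) on day 3, a ratio of 0.439 (0.415 to 0.465). Bcl2l1 stood at 5.74 CPM in naive cells and 14.3 CPM on day 3, a ratio of 2.49 (1.99 to 3.13). These 2 members of 8 differed by at least 2-fold, where 19.4% of the 6171 genes with 20 CPM in either library did. Bcl2l1 and Bid did not reach 20 CPM in either, and of the 6 members that did, 1 (Bcl2) passed, a share near that of all genes. With a pseudocount of 10 CPM in place of 1, 1 member passed. At 1.5-fold, Bak1 and Mcl1 joined them, which made 3 of the 6 members at 20 CPM, against 42.8% of all genes. Mcl1 was lower (235 CPM in naive cells, 143 CPM on day 3). Bak1 was higher, at 28.4 and 54.6 CPM. Bcl2l11 (34.5 and 42.1 CPM), Bax (103 and 115 CPM), Bad (19.4 and 28.3 CPM) and Bid (13.4 and 11.1 CPM) differed less. Cycling cells were 3.01% and 60.0% of these libraries. In the cells that were not cycling, Bcl2 stood at 193 and 89.2 CPM and Bcl2l1 at 5.5 and 13.1 CPM.

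From day 3 to day 5 without cytokine, Mcl1 was higher and Bcl2l1 lower. Mcl1, whose protein is short-lived, went from 143 CPM (138 to 148) to 290 CPM (284 to 297), the highest of all 21 libraries. Bcl2l1 went from 14.3 to 5.65 CPM, close to the 5.74 CPM of naive cells. These 2 members passed 2-fold, where 13.1% of genes with 20 CPM in either library did. Of the 6 members at that level, 1 (Mcl1) passed, a share near that of all genes. With a pseudocount of 10 CPM, 0 passed, and in noncycling cells 1 did. Cycling cells made up 60.0% and 13.8% of these libraries. In the noncycling cells Mcl1 stood at 162 and 298 CPM. Bcl2 went further down, to 60.8 CPM (57.8 to 63.9), the lowest of all libraries, at 0.724 of its day 3 level (0.677 to 0.775). Bak1 was at 54.6 and 30.3 CPM. Over all cells Bcl2l11 hardly differed, at 42.1 and 38.8 CPM, with a ratio of 0.921 (0.842 to 1.01). In the noncycling cells it was lower on day 5, at 53.4 and 39.0 CPM, and in cycling cells it stood at 36.8 and 37.9 CPM. Bax (115 and 136 CPM), Bad (28.3 and 31.8 CPM) and Bid (11.1 and 7.91 CPM) stayed within 2-fold.

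With cytokine on day 3, Bcl2 and Bcl2l1 were higher than without. Against 84.0 CPM without cytokine, Bcl2 stood at 133 and 557 CPM in 5 and 50 IU/mL IL-2. It stood at 452 and 481 CPM in IL-2v, and at 139 and 345 CPM in IL-15, each at 5 and 50 IU/mL. The lower doses of IL-2 and IL-15 gave similar Bcl2 levels, whose intervals overlapped, while the lower dose of IL-2v lay near the higher doses. Bcl2l1 was higher at the higher dose of each cytokine: 14.3 CPM without cytokine, 22.1 and 57.6 CPM in IL-2, 32.1 and 44.0 CPM in IL-2v, and 21.8 and 33.9 CPM in IL-15. Of the 48 values (8 members in 6 libraries, all against the same control), 9 were at least 2-fold different, where 3.6% of values of all genes were. Of the 48, 43 reached 20 CPM in either library, as the values of all genes had to, and the 9 were among them. These were 4 of Bcl2, 4 of Bcl2l1 and 1 of Bid, which encodes the BH3-only protein cleaved by caspase 8, at 23.5 CPM in 50 IU/mL IL-2v against 11.1 CPM. Bcl2l1 and Bid lay under 20 CPM without cytokine, so their values entered the 43 only through the cytokine library. At 1.5-fold the count was 15, against 12% of values of all genes, with Bax and Bcl2l11 among them. Mcl1 was between 102 and 133 CPM in these 6 libraries, below the 143 CPM without cytokine. Bax stood at 179 and 176 CPM in 50 IU/mL IL-2 and IL-2v and between 105 and 126 CPM in the other 4.

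On day 5 Bcl2 and Bcl2l1 were again higher with cytokine, and Bcl2l11 was also among the members past 2-fold. Bcl2 stood at 60.8 CPM without cytokine, 105 and 449 CPM in 5 and 50 IU/mL IL-2, 813 and 663 CPM in IL-2v, and 432 and 600 CPM in IL-15. The ratio to no cytokine was 13.4 (12.7 to 14.1) in 5 IU/mL IL-2v and 1.73 (1.62 to 1.84) in 5 IU/mL IL-2. Bcl2l1 stood at 5.65 CPM without cytokine, 8.48 and 28.4 CPM in IL-2, 30.9 and 47.6 CPM in IL-2v, and 14.2 and 23.2 CPM in IL-15. Of Bcl2, Bcl2l1 and Mcl1, Mcl1 alone was lower with cytokine. It stood at 290 CPM without, 222 and 148 CPM in IL-2, 165 and 100.2 CPM in IL-2v, and 241 and 171 CPM in IL-15, so the higher dose had less Mcl1 in each cytokine.

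Bcl2l11, the gene of BIM, was higher on day 5 with each cytokine. It stood at 38.8 CPM without cytokine, 79.2 and 229 CPM in IL-2, 107 and 81.5 CPM in IL-2v, and 56.1 and 94.5 CPM in IL-15. Its level in 50 IU/mL IL-2, 229 CPM (220 to 238), was 5.91 times that without cytokine (5.49 to 6.37) and the highest of all 21 libraries. The next was 107 CPM (102 to 112) in 5 IU/mL IL-2v, and the intervals did not overlap. In the 50 IU/mL IL-2 library of day 5, 13.7% of cells held a UMI of Hspa1a or Hspa1b. Bcl2l11 stood at 235 CPM (226 to 245) in the cells without such a UMI and 189 CPM in those with one. The library also held the fewest cells and UMIs.

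Of the 48 member values of day 5, 19 passed 2-fold, where 13.1% of values of all genes did. Of the 41 that reached 20 CPM in either library, 17 passed. Without cytokine Bcl2l1 (5.65 CPM) and Bid lay so far under 20 CPM that any of their values in the 41 had to pass. The 4 values of Bcl2l1 and 1 of Bid among the 17 were thus fixed by the filter. The 19 were 5 each of Bcl2, Bcl2l1 and Bcl2l11, 1 of Mcl1, 1 of Bak1 and 2 of Bid. Bid, at 7.91 CPM without cytokine, stood at 21.6 and 18.4 CPM in 50 IU/mL IL-2v and IL-15, and at 7.27 CPM, from 77 UMIs, in 50 IU/mL IL-2. Bak1, which makes pores together with BAX, stood at 30.3 CPM without cytokine and 65.7 CPM in 50 IU/mL IL-2v. Bax was between 89.2 and 134 CPM with cytokine, against 136 CPM without, with overlapping intervals for 50 IU/mL IL-2v. Bad, whose protein is held inactive when phosphorylated, was between 16.1 and 26.6 CPM with cytokine and 31.8 CPM without. Each group of 6 comparisons shares 1 control library, so a departure of that library would enter all 6.

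**Figure D2:**
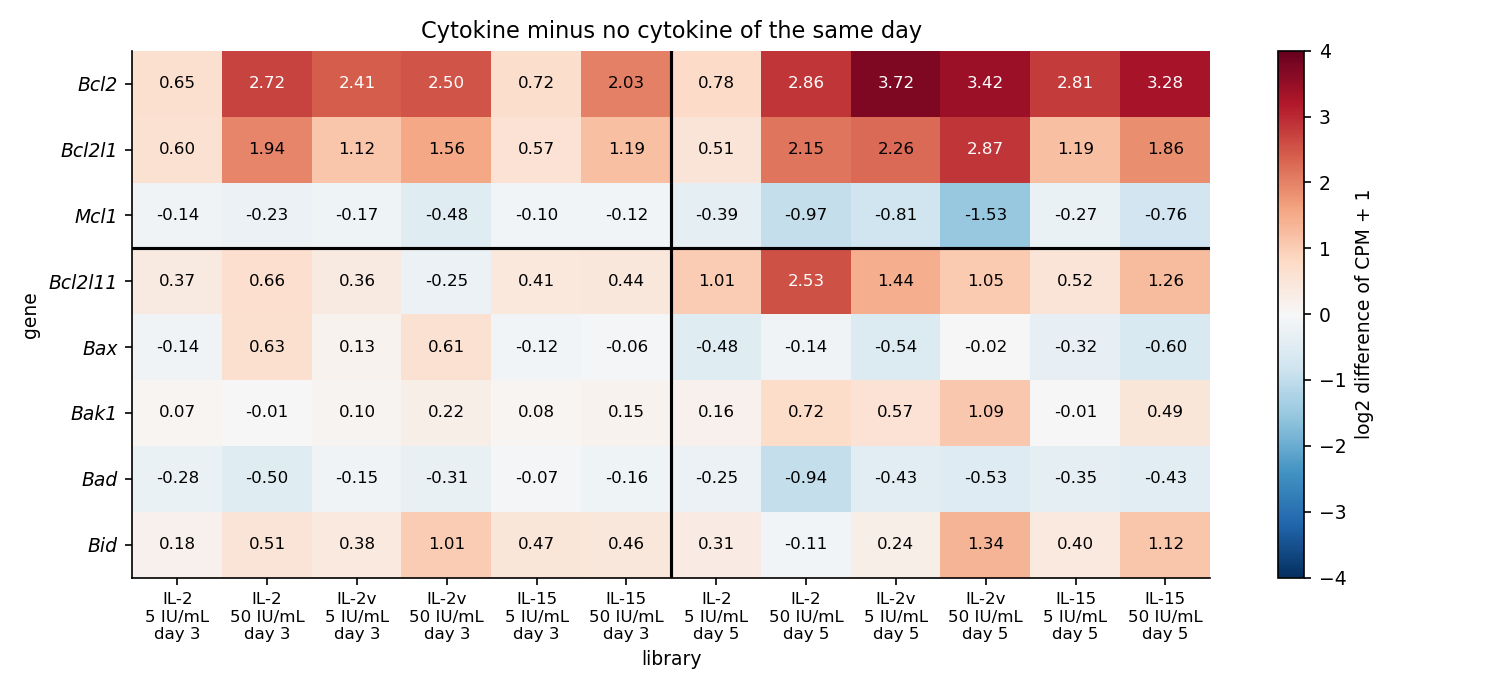
Log2 difference of CPM + 1 between each cytokine library of days 3 and 5 (columns) and the library of that day without cytokine, for each gene (rows). Red is higher and blue lower with cytokine, with survival genes above the horizontal line and death genes below it. Bcl2 runs from 0.65 to 3.72, and Mcl1 from -1.53 to -0.10.

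The shares of cycling cells differed alongside these levels. They were 60.0% without cytokine and 55.7% to 86.9% with cytokine on day 3, and 13.8% and 18.7% to 66.7% on day 5. In the noncycling cells of day 5, Mcl1 stood at 298 CPM without cytokine and 119 CPM in 50 IU/mL IL-2v. In the same cells Bcl2 stood at 61.5 CPM without cytokine and 900.0 CPM in 5 IU/mL IL-2v, and Bcl2l11 at 39.0 CPM and 256 CPM in 50 IU/mL IL-2.

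Bcl2 differed between the doses of IL-2 in opposite directions early and late. Going from 5 to 50 IU/mL, Bcl2 went from 133 to 557 CPM on day 3, a ratio of 4.21 (4.02 to 4.40), and from 105 to 449 CPM on day 5, a ratio of 4.28 (4.07 to 4.51). On day 10 it went from 1173 CPM (1161 to 1186) at 5 IU/mL to 333 CPM (326 to 340) at 50 IU/mL, a ratio of 0.284 (0.278 to 0.291). The 5 IU/mL arm moved from the third lowest Bcl2 level, on day 5, to the highest of all 21 libraries on day 10, a ratio of 11.2 (10.7 to 11.7). Bcl2l11 showed the same turn: 54.8 and 66.9 CPM on day 3, 79.2 and 229 CPM on day 5, and 86.4 and 44.6 CPM on day 10. Bcl2l1 was higher at 50 IU/mL on each day, with log2 differences of 1.34, 1.63 and 0.48 on days 3, 5 and 10. It was the 1 member with the same sign on all 3 days and a median difference of at least 2-fold, where 6.99% of genes met that rule. Leaving out day 5 ended this call, and leaving out day 10 left Bcl2 and Bcl2l1 called. The share of all genes was not counted with a day left out, where fewer pairs make the rule easier to meet. Mcl1 was lower at 50 IU/mL on each day, by 0.09, 0.58 and 1.04 on the log2 scale.

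In IL-2v the dose made less difference to Bcl2. It stood at 452 and 481 CPM at 5 and 50 IU/mL on day 3, 813 and 663 CPM on day 5, and 641 and 550.1 CPM on day 10. The day 3 difference, 0.09 on the log2 scale, turned to -0.02 with another scaling of the libraries (trimmed mean of M values, TMM). No member passed the 2-fold rule, which 3.01% of genes met. At 1.5-fold, Bcl2l1 and Bid met it, against 8.02% of genes. Bid averaged under 20 CPM at 5 IU/mL, so it met the 20 CPM filter only through the higher dose. Bcl2l1 differed by 0.44, 0.61 and 0.67 on the log2 scale and Bid by 0.63, 1.10 and 0.20. Bcl2l11 was lower at 50 IU/mL on each day: 54.2 and 35.3 CPM on day 3, 107 and 81.5 CPM on day 5, and 80.2 and 57.7 CPM on day 10. Bax was higher at 50 IU/mL on each day, by 0.48, 0.52 and 0.44 on the log2 scale.

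In IL-15 the higher dose had more Bcl2, Bcl2l1 and Bcl2l11. Bcl2 stood at 139 and 345 CPM on day 3, 432 and 600 CPM on day 5, and 517 and 1015 CPM on day 10. Bcl2l1 stood at 21.8 and 33.9 CPM, 14.2 and 23.2 CPM, and 6.05 and 23.9 CPM on the same days. Bcl2l11 stood at 56.3 and 57.4 CPM, 56.1 and 94.5 CPM, and 36.9 and 58.2 CPM. Its day 3 ratio was 1.02 (0.94 to 1.10), and the sign of that day turned under TMM scaling. No member passed 2-fold, a rule met by 1.05% of genes, with the median Bcl2 difference at 0.97 on the log2 scale just short of it. At 1.5-fold these 3 members passed, against 3.02% of genes. Bcl2l1 averaged under 20 CPM at 5 IU/mL, so it met the 20 CPM filter only through the higher dose.

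**Figure D3:**
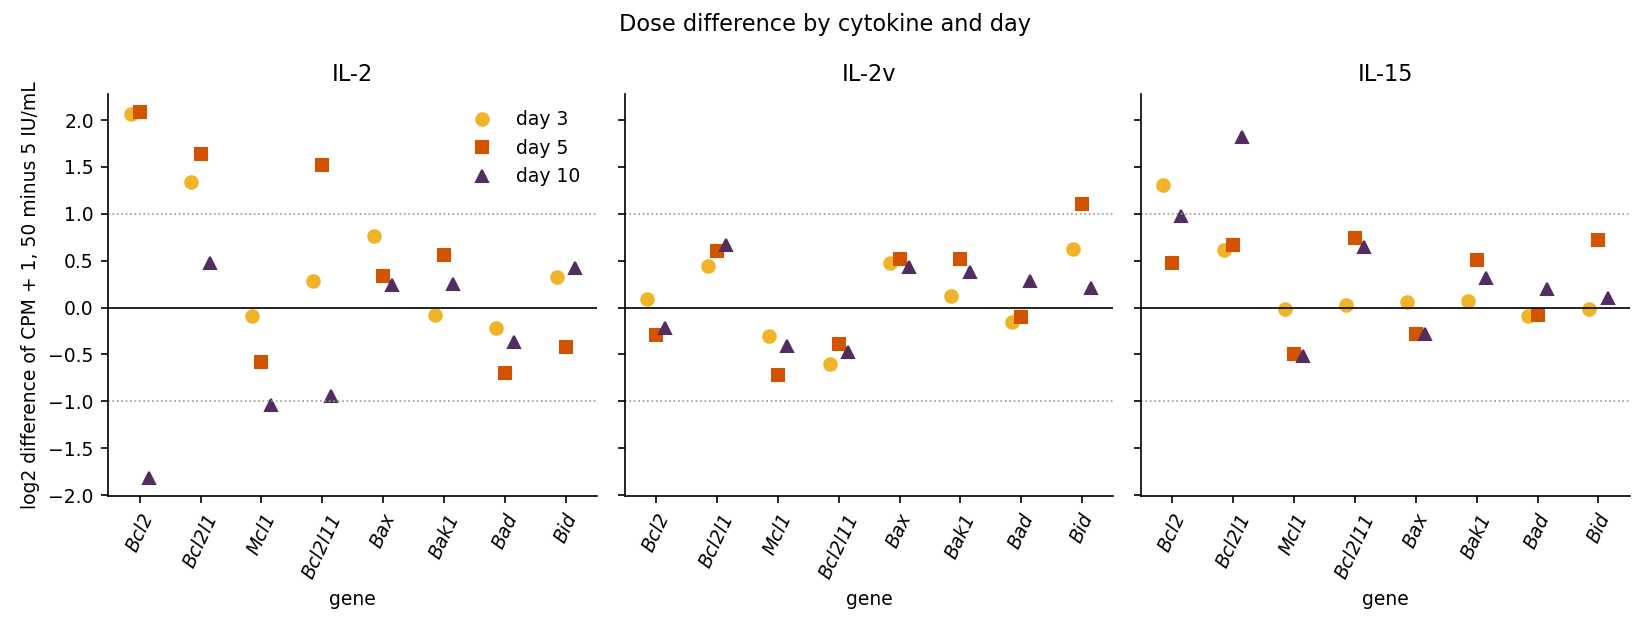
Log2 difference of CPM + 1 between 50 and 5 IU/mL (y) for each gene (x) on days 3, 5 and 10, with 1 panel per cytokine and dotted lines at 2-fold. In IL-2, Bcl2 lies at 2.06 and 2.09 on days 3 and 5 and at -1.81 on day 10. Bcl2l11 lies below 0 on each day in IL-2v and at 0.03, 0.74 and 0.64 in IL-15.

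Between cytokines at equal dose and day, no member kept 1 direction over 6 pairs with a median of 2-fold. That rule was met by 1.32% of genes for IL-2v against IL-2, 2.19% for IL-15 against IL-2 and 3.06% for IL-2v against IL-15. In 4 of 6 pairs IL-2v had more Bcl2 than IL-2. The ratio was 7.75 (7.41 to 8.12) at 5 IU/mL on day 5 and 0.546 (0.537 to 0.556) at the same dose on day 10. In 6 of 6 pairs IL-2v had less Mcl1 than IL-2, with log2 differences of -0.85 to -0.04, the smallest of which lay within counting error. IL-15 had more Mcl1 than IL-2 in 6 of 6 pairs, by 0.04 to 0.61 with a median of 0.12. How many of all genes kept 1 sign in 6 pairs at any size was not counted. Bcl2l11 stood at 229 CPM in 50 IU/mL IL-2 on day 5 against 81.5 CPM in IL-2v and 94.5 CPM in IL-15 at that dose. At 1.5-fold, Bcl2l1, Bak1 and Mcl1 separated IL-2v from IL-15, against 9.81% of genes. Bcl2l1 (median log2 difference 0.93) and Bak1 (0.59) were higher in IL-2v in 6 of 6 pairs, and Mcl1 was lower in 6 of 6 (-0.65). On day 3 the Bak1 difference lay within counting error at both doses, with ratios of 1.01 (0.932 to 1.09) and 1.05 (0.974 to 1.13) at 5 and 50 IU/mL. The same held for Mcl1 at 5 IU/mL, where IL-15 stood at 1.05 times IL-2v (0.999 to 1.11). Under TMM scaling Bak1 turned in 1 of those pairs, from 0.07 to -0.01.

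By day 10 the cultures differed in both arms of the family. IL-15 cultures had little Bcl2l1, at 6.05 and 23.9 CPM for 5 and 50 IU/mL, against 41.5 and 58.1 CPM in IL-2 and 27.0 and 43.6 CPM in IL-2v. Bak1 stood at 24.9 and 31.3 CPM in IL-15, 61.8 and 73.7 CPM in IL-2, and 47.2 and 61.6 CPM in IL-2v. Bax stood at 137 and 112 CPM in IL-15, 221 and 262 CPM in IL-2, and 188 and 255 CPM in IL-2v. So Bcl2l1, Bak1 and Bax were each lower in both IL-15 libraries than in the other 4 cytokine libraries of day 10. Intervals of Bcl2l1 overlapped between 50 IU/mL IL-15 and 5 IU/mL IL-2v. How many of all genes had the same order was not counted, so these values only describe the members. Mcl1 was 259 and 181 CPM in IL-15, 245 and 119 CPM in IL-2, and 136 and 102 CPM in IL-2v. Set against naive cells, 5 IU/mL IL-15 on day 10 had a Bcl2l1 ratio of 1.05 (0.813 to 1.37), a Bcl2l11 ratio of 1.07 (0.964 to 1.19) and a Bcl2 ratio of 2.70 (2.60 to 2.81). The share of cycling cells on day 10 was 5.2% and 13.1% in IL-15, 18.2% and 13.4% in IL-2, and 40.6% and 25% in IL-2v. In the noncycling cells of day 10, Bcl2l1 was 6.2 and 23.8 CPM in IL-15, 43.6 and 57.6 CPM in IL-2, and 24.5 and 43.2 CPM in IL-2v. The 23.8 CPM of 50 IU/mL IL-15 and the 24.5 CPM of 5 IU/mL IL-2v lay close together.

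From day 3 to day 10, no member moved 1 way in all 6 cultures by a median of 2-fold, where 8.85% of genes did. A culture here is a cytokine at a dose, with a separate library for each day. Bax was higher in 6 of 6 with a median log2 difference of 0.54, although the 0.02 of 50 IU/mL IL-15 lay within counting error. The share of all genes with 1 sign in all 6 at any size was not counted. Bcl2 was higher in 5 of 6, by up to 3.14 on the log2 scale in 5 IU/mL IL-2, and lower in 50 IU/mL IL-2 (-0.74). Between days 5 and 10 Bax differed by 1.18 and 1.08 in 5 and 50 IU/mL IL-2, by 1.01 and 0.93 in IL-2v and by 0.33 in each dose of IL-15. Bcl2l11 was lower on day 10 than on day 5 in 50 IU/mL IL-2, at 44.6 against 229 CPM.

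Shares of cells with a UMI were also counted. Each cell was thinned to 2000 UMIs, which left out 57 to 393 shallower cells per library. Bcl2 was then seen in 10.5% of cells (exact 95% interval 9.75% to 11.3%) without cytokine on day 5 and in 88.0% (87.2% to 88.8%) in 5 IU/mL IL-2 on day 10. Without thinning these shares were 18.9% and 97.6%. Bcl2l11 was seen in 34.8% of thinned cells (33.0% to 36.5%) in 50 IU/mL IL-2 on day 5 and in at most 18.2% of cells elsewhere. Without thinning its shares were 45.7% and at most 30.0%. Mcl1 ranged from 18.3% in 50 IU/mL IL-2v on day 5 to 43.4% without cytokine on day 5, or 32.8% and 66.2% unthinned. No cell type lacking these genes was present to give a background share.

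The balance of the family was taken as the mean log2(CPM + 1) of the 3 survival genes minus that of the 5 death genes. Only its differences between libraries are read, since UMI counts of different genes are not on a common scale. It stood at 1.09 in naive cells, 0.53 without cytokine on day 3 and 0.51 on day 5. On day 3 it was 0.85 and 1.74 in 5 and 50 IU/mL IL-2, 1.48 and 1.46 in IL-2v, and 0.77 and 1.39 in IL-15. On day 5 it was 0.66 and 1.44 in IL-2, 1.98 and 1.51 in IL-2v, and 1.71 and 1.60 in IL-15. On day 10 it was 2.08 and 1.36 in IL-2, 1.43 and 1.27 in IL-2v, and 1.64 and 2.20 in IL-15. The values without cytokine were thus the lowest of the 21 in this making of the balance. The 5 IU/mL arms of IL-2 on days 3 and 5 and of IL-15 on day 3 also lay under the naive value. With summed CPM the value without cytokine was still lowest on day 3 (-0.06) but was 0.54 on day 5. Lower than that were 5 IU/mL IL-2 on days 3 and 5 (0.17 and 0.44). So were 5 IU/mL IL-15 on day 3 (0.16) and 50 IU/mL IL-2 on day 10 (0.27).

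The higher dose had a lower balance than the lower dose in 5 of 9 pairs: all 3 days of IL-2v, day 10 of IL-2 and day 5 of IL-15. The count was 2 of 9 without Mcl1 in the balance, and 2 of 9 with Bcl2 and Bcl2l11 alone. In IL-2 the dose difference was 0.89 on day 3, 0.79 on day 5 and -0.71 on day 10. It was -0.02, -0.46 and -0.15 in IL-2v and 0.63, -0.11 and 0.56 in IL-15. Of the 6 pairs of equal dose and day, 3 had a lower balance in the named cytokine for each of IL-2v against IL-2, IL-15 against IL-2 and IL-2v against IL-15. With Bcl2 and Bcl2l11 alone the counts were 1, 1 and 3 of 6, and the last was 5 without Bcl2l1 and 1 without Mcl1. The balance was lower on day 10 than on day 3 in 3 of 6 cultures, those of 50 IU/mL IL-2 and of both doses of IL-2v. Bcl2 carried much of the spread. Without it the balance was 0.33 in naive cells and 0.24 and 0.35 without cytokine on days 3 and 5. In 5 IU/mL IL-2 it was then 0.26 on day 5 and 0.90 on day 10. The log2 difference between Bcl2 and Bcl2l11 alone ranked 5 IU/mL IL-2 on day 5 lowest (0.40), with 0.64 without cytokine on that day and 4.10 in 50 IU/mL IL-15 on day 10.

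**Figure D4:**
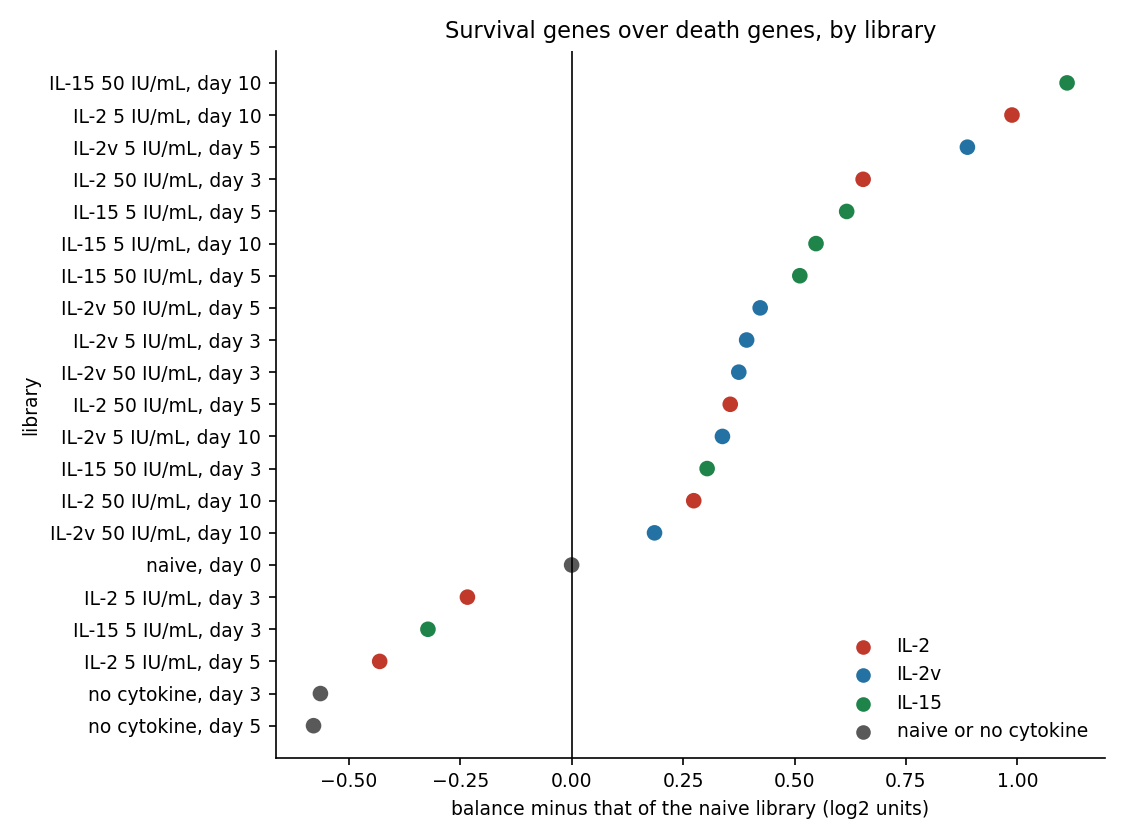
Balance of the 3 survival genes over the 5 death genes in each of 21 libraries (y, sorted), minus that of naive cells (x, log2 units), coloured by cytokine. The libraries without cytokine lie lowest, at -0.56 and -0.58, and 50 IU/mL IL-15 on day 10 lies highest, at 1.11.

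Within a library, cycling cells had less Bcl2l11, Mcl1 and Bcl2 than the other cells. Bcl2l11 was lower in cycling cells in 20 of 21 libraries (median log2 difference -0.46), Mcl1 in 20 of 21 (-0.26) and Bcl2 in 18 of 21 (-0.17). Bcl2l1 was higher in 18 of 21 (0.10), Bak1 in 17 of 21 (0.17) and Bax in 16 of 21 (0.08). Bad was lower in 17 of 21 (-0.15), and Bid was lower in 11 and higher in 10. The median over 5495 genes was 0.06. The exception for Bcl2l11 was 5 IU/mL IL-15 on day 10, with 0.24 from 63 UMIs in cycling cells. The balance was lower in cycling cells in 17 of 21 libraries, but the count turned on its makeup. It was 10 without Mcl1, 11 without Bak1 and 4 with Bcl2 and Bcl2l11 alone. The exceptions to the 17 were the 50 IU/mL libraries of IL-2 on days 5 and 10 and of IL-2v on days 3 and 10. In cycling cells Bcl2l1 had 8 UMIs in naive cells and 6 in 5 IU/mL IL-15 on day 10, and Bid 11 and 14. Counting error was not taken for these differences, and some were small, as the -0.03 of the balance without cytokine on day 5. The arms were chosen on 2 genes outside the family, but cycling cells also differ in UMIs per cell, whose part was not tested.

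**Figure D5:**
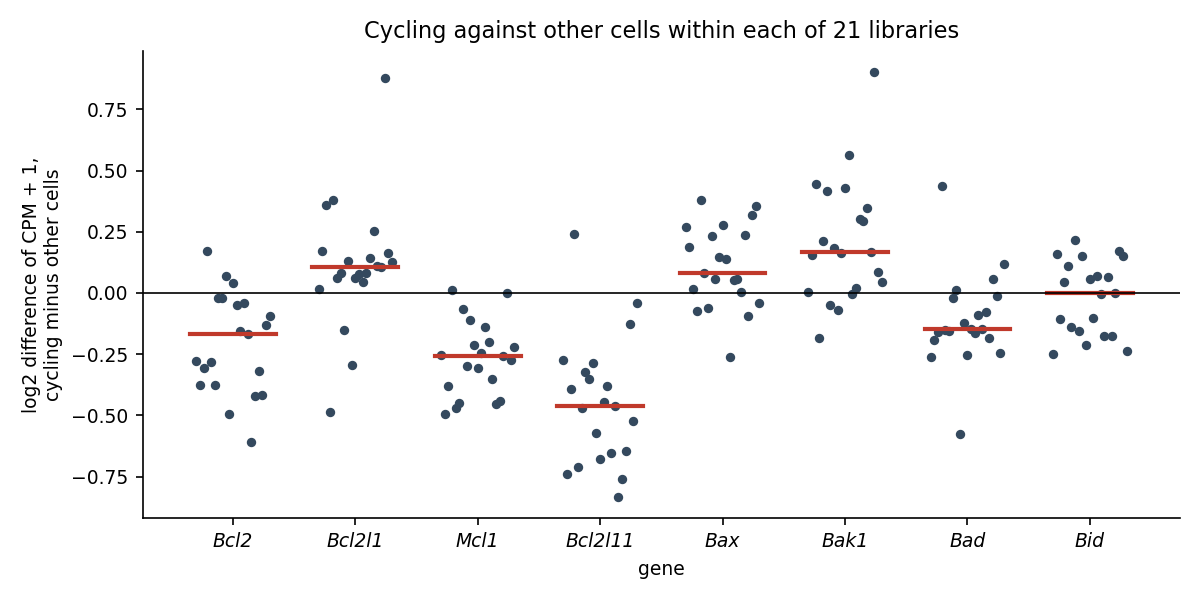
Log2 difference of CPM + 1 between cycling cells (a UMI of Mki67 or Top2a) and the other cells of the same library (y) for each gene (x), 1 point per library and a red line at the median of 21 libraries. Bcl2l11 lies below 0 in 20 libraries, with a median of -0.46.

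Across the 21 libraries, members fell into different profiles. Pearson's r of log2(CPM + 1) was 0.85 between Bcl2l1 and Bak1, -0.82 between Mcl1 and Bak1, -0.78 between Mcl1 and Bcl2l1, -0.72 between Mcl1 and Bid and 0.58 between Bcl2 and Bcl2l1. For Bcl2 and Bcl2l11 it was 0.39. The libraries share cytokines, doses and days and differ in depth, so these values only describe them. Among the 5495 genes, those most like Bcl2 were Sec24a (0.93), 1700025G04Rik (0.81) and Atp2b1 (0.77). Those most like Bcl2l11 were Fli1 (0.87), Itgb3 (0.83) and Camk2g (0.81), and those most like Mcl1 were Traf3ip3 (0.94), Smim14 (0.94) and AI837181 (0.93). Bcl2l1 was most like Eif4a1 (0.93), Vim (0.92) and Glrx3 (0.92), and Bak1 most like Mvb12a, Ppp1ca and Pigs (each 0.95). Genes most like Bax included Timm17a and Aprt (each 0.89). Bad was most like Ogfr (0.88), Clic1 (0.86) and Ncf4 (0.86), and Bid most like Rae1 (0.92), Atp2a2 (0.91) and Hnrnpab (0.91).

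Other genes of the pathway were taken from 5 lists of 57 genes: further survival members, further death members, the apoptosome and caspases, caspase inhibitors with the death receptor arm, and regulators of the family. Of these, 54 were in the tables. On activation 34 reached 20 CPM, of which 3 were at least 2-fold higher and 3 lower, where 19.4% of all genes passed 2-fold. Bnip3, a mitochondrial BH3-like protein induced by low oxygen, stood at 2.38 CPM in naive cells and 78.8 CPM on day 3. It reached 20 CPM only on day 3, so its passing was fixed by the filter. Dynll2, which can tether the BH3-only protein BMF, was higher (26.2 and 66.7 CPM). Mapk8, Tpt1 and Cflar, the inhibitor of caspase 8 activation, were lower. From day 3 to day 5 without cytokine, Bnip3 was the 1 gene of 33 past 2-fold, at 14.8 CPM on day 5, where 13.1% of all genes passed.

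With cytokine on day 3, at most 1 of the 30 to 32 list genes passed 2-fold in any library, where 3.6% of values of all genes did. Bnip3 stood at 343 CPM in 50 IU/mL IL-2 and 164 CPM in 5 IU/mL IL-2v, and at 35.6 CPM in 5 IU/mL IL-15, against 78.8 CPM without cytokine. Fas, the death receptor, stood at 14.0 CPM in 50 IU/mL IL-2v against 37.7 CPM. On day 5, 8 of 35 were higher and 1 was lower in 50 IU/mL IL-2, where 24.0% of all genes passed in that library. In 50 IU/mL IL-2v 5 of 35 were higher and 3 lower, where 26.7% of all genes passed. These shares of the lists lay near those of all genes. In 5 IU/mL IL-2, 0 of 33 passed, where 2.5% of all genes did. In 5 IU/mL IL-2v, 2 of 34 passed, against 12.4% of all genes. In 5 and 50 IU/mL IL-15, 1 of 30 and 2 of 33 passed, against 1.74% and 7.72%.

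In the 50 IU/mL IL-2 library of day 5, where Bcl2l11 peaked, 4 of the 10 further death or mixed members in the tables reached 20 CPM there or without cytokine, and these 4 were at least 2-fold higher, where 24.0% of all genes differed by 2-fold in either direction. This list was singled out after its values were seen, and the 5 lists together lay near the share of all genes. The members Bad and Bid had their lowest levels of the 21 libraries there, at 16.1 and 7.27 CPM. Their intervals overlapped those of other libraries, as of naive cells for Bad and of no cytokine on day 5 for Bid. Of the listed genes under 20 CPM, Bcl2l12 stood at 7.65 against 15.5 CPM without cytokine and Bik at 1.51 against 2.92 CPM. Bmf, a BH3-only gene, stood at 5.48 against 1.09 CPM and Bcl2l13 at 16.3 against 14.9 CPM. Bnip3 stood at 568 CPM against 14.8 CPM without cytokine, and Bnip3l, its close relative, at 466 against 177 CPM. Pmaip1 (NOXA, a BH3-only protein that binds MCL1) stood at 20.6 against 4.56 CPM. Pmaip1 reached 20 CPM only with cytokine, so its place among the 4 was fixed by the filter. Bnip3 also met the filter only through the library with cytokine, where it was high. Bbc3 (PUMA, a BH3-only protein induced by p53) stood at 119 against 49.0 CPM, and Apaf1, the core of the apoptosome, at 39.3 against 16.6 CPM. Foxo3, a transcription factor known to act on Bcl2l11, stood at 45.8 against 19.0 CPM. Foxo1 stood at 103 CPM in both libraries and Trp53, the gene of p53, was lower at 73.2 against 125 CPM. Links between these genes were not tested. Diablo, which blocks caspase inhibitors, was lower at 13.3 against 30.8 CPM. Bnip3, Pmaip1, Dynll2 and Usp9x, the deubiquitinase of MCL1, were among those past 2-fold upward in 50 IU/mL IL-2v, where Fas, Birc2 and Bcl2a1b were lower.

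Bcl2a1b, a survival gene, stood at 30.6 CPM without cytokine on day 5, 5.26 and 10.9 CPM in 5 and 50 IU/mL IL-2v, and 13.5 and 7.69 CPM in IL-15. It has near-identical copies, so its counts are uncertain. Birc2, a caspase inhibitor gene, stood at 62.6 CPM without cytokine and 29.3 CPM in 50 IU/mL IL-15. Between cytokines and doses the list genes meeting the rule were all Bnip3: lower in IL-15 than in IL-2, and higher at 50 than at 5 IU/mL of IL-2 and of IL-15. It was 1 of 33, 33 and 29 list genes, where 2.19%, 6.99% and 1.05% of all genes met the rule. For the IL-15 dose Bnip3 averaged 18.7 CPM at 5 IU/mL, so it met the 20 CPM filter only through the higher dose. From day 3 to day 10, 3 of 33 list genes were lower in all 6 cultures with a median of 2-fold, a share near the 8.85% of all genes that met this rule in either direction. Fas (median log2 difference -1.17) and Htra2 (-1.0) were among them.

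Under TMM scaling the member differences shifted by up to 0.44 on the log2 scale, and the count of members for the IL-15 dose was 1 in place of 0. The median log2 difference of all genes lay between -0.39 and 0.30 over the pairs compared. Of 376 member differences, 17 changed sign under TMM scaling, and the largest of these was 0.32 in size before the change. Those named here are the Bcl2 dose difference in IL-2v on day 3, the Bcl2l11 dose difference in IL-15 on day 3 and 1 Bak1 pair of IL-2v against IL-15.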

How the data were processed

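Each table held the deposited raw counts of UMIs per gene and cell barcode. Per the submitters' processing notes, build mm10, Cell Ranger and Seurat 4.0.1 and 3.0.2 were used, with no roles or order given. The annotation, doublet treatment and use of strand are not given in the sources used here. Barcodes under 1000 UMIs or 500 genes, or over 10% mitochondrial UMIs, were left out (2 cells), and no doublet caller was run. UMIs were summed per library and scaled to CPM. Differences are of log2(CPM + 1), which understates low genes. A difference of 2-fold or more was counted, and over several pairs the same sign in all with a median of 2-fold. Background shares cover genes with 20 CPM on average in either arm. Pairs of equal dose or day are not replicates. A model over cytokine, dose and day was not tried, and p-values are not given. CPM has exact Poisson intervals, and ratios and shares exact Clopper-Pearson intervals, all 95%. UMIs of 1 cell share its capture, so these cover counting error only. The counting code was tested on simulated data. Members, lists and limits were chosen with earlier results of these data known. All 8 members, the 2 highest and 2 lowest listed pathway genes past the limit in each comparison and the 3 genes most like each member are named, except that some items are not reported here, though counts include them. Other genes past a limit were named after their values were seen: Foxo3, Apaf1, Bnip3l, Bbc3, Usp9x, Cflar, Htra2, Dynll2, and Birc2 on day 5. So were Bcl2l12, Bik, Bmf, Bcl2l13, Foxo1 and Trp53. Promoters came from RefSeq (GRCm38.p6) and gene positions from GENCODE vM21. Tools were Python 3.11.15, pandas 2.3.3, scipy 1.17.1 and, for TMM, edgeR 4.0.16 in R 4.3.3. Alternatives were other scalings, a pseudocount of 10, 1.5-fold, single-cell means, cells without cycling markers, cells under 2 times the median UMIs, each day left out and other makings of the balance.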

Additional observations from a re-analysis of the deposited data

Results flagged for a closer look

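The dose difference of Bcl2l11 ran opposite ways in 2 cytokines. From 5 to 50 IU/mL it was -0.61, -0.39 and -0.47 on the log2 scale in IL-2v on days 3, 5 and 10, and 0.03, 0.74 and 0.64 in IL-15. The difference between the median dose differences was -1.11. It has 1 library per condition and was not tested. The IL-15 value of day 3 turned to -0.00 under TMM scaling, so the opposite signs rest on days 5 and 10.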

How the results depend on the processing

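Of 219 alternative values over 18 results, 185 stayed within 1.5 times the reported count and 34 did not. Where leaving out a day left fewer pairs for the balance, shares of pairs were compared in place of counts. A pseudocount of 10 CPM left 1 member for activation and 0 for later culture without cytokine, and cells without cycling markers left 1 for the latter. At 1.5-fold the counts were 4 for activation, 15 on day 3 with cytokine, 3 for IL-2v against IL-15, 2 for the IL-2v dose and 3 for the IL-15 dose. Leaving out day 3 gave 1 member for IL-2v against IL-15 and 1 for the IL-15 dose. Leaving out day 5 gave 0 for the IL-2 dose and 2 for the IL-15 dose. Leaving out day 10 gave 2 for the IL-2 dose. Shares of all genes were not counted with a day left out, nor for the changed pseudocount, scalings or cell sets. For the IL-15 dose the count was 1 in place of 0 under TMM scaling, totals without ribosomal protein and mitochondrial genes, single-cell means, cells without cycling markers and cells under 2 times the median UMIs. The balance counts moved with its makeup. Pairs lower at 50 than at 5 IU/mL went from 5 to 2 without Mcl1 and with Bcl2 and Bcl2l11 alone. With these 2 genes alone, 1 pair was lower for IL-2v against IL-2, 1 for IL-15 against IL-2, 1 library with cytokine than without and 4 in cycling cells. IL-2v pairs lower than IL-15 went from 3 to 5 without Bcl2l1 and 1 without Mcl1. Of the remaining 4 pairs, 1 was lower without day 10 for IL-2v against IL-2 and against IL-15, and 1 without day 3 for IL-15 against IL-2. Libraries lower with cytokine went from 0 to 1 with summed CPM, without Bcl2 and without Bax. Libraries lower in cycling cells went from 17 to 10 without Mcl1 and 11 without Bak1. The cause was not tested. Without the 20 CPM filter the called genes or values per comparison went from between 58 and 4537 to between 105 and 9307. For the cycling balance, TMM scaling, single-cell means and the UMI limit were not run. Over whole libraries Bid and Bcl2l1 have the fewest UMIs, 77 and 106 at the lowest, which limits their ratios. Within cycling cells they have fewer, 11 and 6 at the lowest.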
